A study of Homo sapiens with 2 samples.

Results

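The genes described here are 10 sensors of foreign or misplaced nucleic acids and their adaptors, RIGI, IFIH1, DHX58, MAVS, TLR3, TICAM1, EIF2AK2, ZBP1, CGAS and STING1, out of 21743 genes that could be named on the array. They were chosen by name, with earlier results of these data known. Every probe whose RefSeq accession belongs to one of them was taken, which gave 20 probes. RNA came from MRC-5 cells, an established fibroblast line from human fetal lung, and each condition was 1 culture on 1 single-colour Agilent array, so that no test between the conditions was possible. One culture received control siRNA and the other periostin siRNA at 10 nM for 48 h. Both siRNAs were commercial ON-TARGET plus oligonucleotides delivered with the lipid reagent RNAiMAX, so the control cells were transfected cells too, and cells without siRNA were not analysed here. The dose of control siRNA for the array culture itself is not given in the sources used here, although other MRC-5 experiments of the study used the same dose of both. The comparison was set up to find genes whose expression depends on periostin, a matricellular protein of the lung. With these arrays, loss of periostin and any other effect of the periostin siRNA or its transfection cannot be told apart.

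Cells recognise viral RNA and DNA with a small set of receptors. RIG-I (encoded by RIGI) and MDA5 (IFIH1) are helicases that bind double-stranded RNA in the cytosol and pass the signal to MAVS, an adaptor on mitochondria, while LGP2 (DHX58) is a related helicase that tunes them. Toll-like receptor 3 (TLR3) binds double-stranded RNA inside endosomes and signals through TRIF (TICAM1). PKR (EIF2AK2) is a kinase that halts translation when it binds double-stranded RNA, ZBP1 binds nucleic acids in the Z conformation and can start necroptosis, and cGAS (CGAS) binds cytosolic DNA and makes the messenger cGAMP, which activates STING (STING1). Most of these routes end in the transcription of interferon and its target genes, and several of the sensors are themselves known interferon targets.

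The promoters are shown first, and whether their motifs bear on the signals given below was not tested. Interferon regulatory factors bind repeats of GAAA, so the windows from 250 bases before to 50 bases after each gene's start in RefSeq (GRCh38.p14) were searched on both strands for GAAA, any 2 bases, GAAA (the wider repeat) and for GAAA, any 1 base, GAAA (the tighter repeat). Of the 10 genes 6 were in the promoter table, and DHX58, ZBP1, CGAS and STING1 had no entry. The wider repeat was found in 3 of the 6 (IFIH1, TLR3 and EIF2AK2) and the tighter in 1 (RIGI), against 3.57% and 3.12% of all 35116 promoter windows. In IFIH1 there were 3 matches, of which the upstream pair overlap. Neither repeat was found in MAVS or TICAM1. The related motif TTCNNNGAA, bound by STAT dimers, was found in 1 of the 6 windows, that of TLR3, against 7.66% of all windows. The stretches that hold the GAAA repeats are printed with the matched bases in capitals (on the opposite strand a GAAA reads TTTC), and for MAVS and TICAM1 the 90 bases before the start are given for comparison. Each is written 5′ to 3′ on the strand of the gene.
RIGI, chr9:32526346-32526444, minus strand: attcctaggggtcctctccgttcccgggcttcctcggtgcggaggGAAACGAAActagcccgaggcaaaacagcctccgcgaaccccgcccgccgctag
IFIH1, chr2:162318685-162318888, minus strand: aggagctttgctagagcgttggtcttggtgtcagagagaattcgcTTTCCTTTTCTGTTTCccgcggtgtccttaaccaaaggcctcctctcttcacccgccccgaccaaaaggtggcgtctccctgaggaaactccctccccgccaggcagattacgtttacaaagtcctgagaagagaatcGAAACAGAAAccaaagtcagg
TLR3, chr4:186069107-186069161, plus strand: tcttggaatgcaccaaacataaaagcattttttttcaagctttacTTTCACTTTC
EIF2AK2, chr2:37156977-37157031, minus strand: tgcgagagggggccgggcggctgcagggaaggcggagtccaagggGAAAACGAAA
MAVS, chr20:3846744-3846833, plus strand: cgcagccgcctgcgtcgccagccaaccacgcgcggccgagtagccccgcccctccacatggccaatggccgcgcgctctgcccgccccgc
TICAM1, chr19:4831713-4831802, minus strand: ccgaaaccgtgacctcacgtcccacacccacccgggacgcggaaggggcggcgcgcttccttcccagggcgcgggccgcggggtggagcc

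In TLR3 and EIF2AK2 the match lay across the start itself, ending 6 and 4 bases past it, and in IFIH1 the nearest match ran from position -21 to -12 counted from the start. The RIGI match ran from -203 to -195. A match of this kind is a description of the letters and says nothing of whether a factor was bound in these cells.

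**Figure D1:**
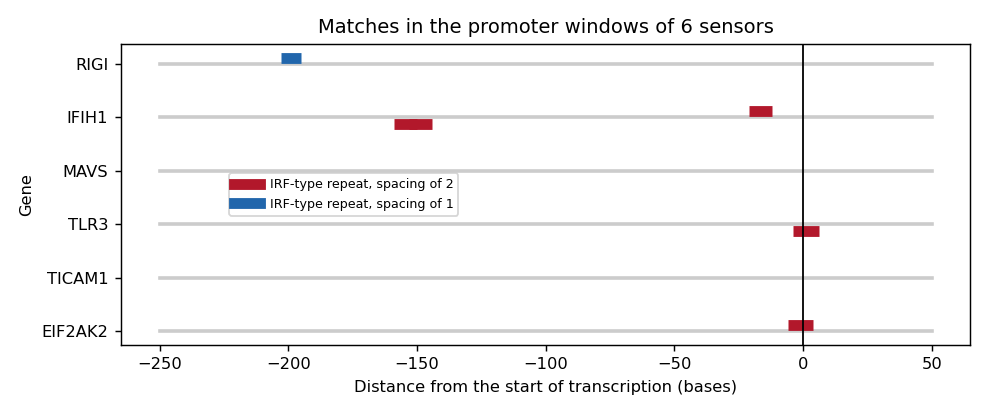
Matches of the wider (red) and the tighter (blue) GAAA repeat in the promoter windows of 6 sensor genes, by distance in bases from the start of transcription (black line), with forward matches above the grey line of a gene and reverse matches below it. MAVS and TICAM1 have none, and the matches of TLR3 and EIF2AK2 cross the start.

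Signals are given as background-subtracted intensities scaled so that both arrays share a 75th percentile of 377. The intensity of one probe cannot be set against that of another, so levels are compared for each probe between the arrays only. Feature Extraction, the scanner's program, flagged as well above background 58.0% of the 58717 spots with control siRNA and 58.9% with periostin siRNA. The lowest signal with that flag was 7.55 and 7.77 on the scaled axis. POSTN, the gene aimed at by the siRNA, had a signal of 2639 with control siRNA, and with periostin siRNA it had 280. Its log2 ratio was -3.24 ± 0.20, where the error is Feature Extraction's own estimate for 1 spot, propagated to the ratio. All member probes were printed once, so their errors are of this kind, and they do not cover the difference between cultures. In bulk RNA, fewer cells that express a gene and less RNA per cell cannot be told apart. All 12 fibroblast markers, among them COL1A1, COL1A2, THY1 and VIM, were well above background on both arrays.

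Of the 10 genes, 9 were present in control cells, with all of their 18 probes well above background on both arrays. ZBP1 alone was not detected. Its first probe had a signal of 1.72 with control siRNA and 1.76 with periostin siRNA, and its second had 1.50 and 2.51. The 308 negative control spots of each array had a median of 1.80 with control siRNA and of 1.81 on the other array. Of the 4 ZBP1 signals, 2.51 alone lay above their 95th percentile of 2.08, and it was below the brightest of them at 6.09. No ratio is given for ZBP1. The dimmest of the 18 probes on the control array, that of TLR3 at 80.0, was 10.6 times the lowest signal called well above background there and 2.37 times the brightest negative control spot. None of the 20 probes carried an outlier flag and none was saturated. Control MRC-5 fibroblasts thus had transcripts of RIGI, IFIH1, DHX58, TLR3 and EIF2AK2 among the double-stranded RNA sensors, and of both adaptors MAVS and TICAM1.

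**Figure D2:**
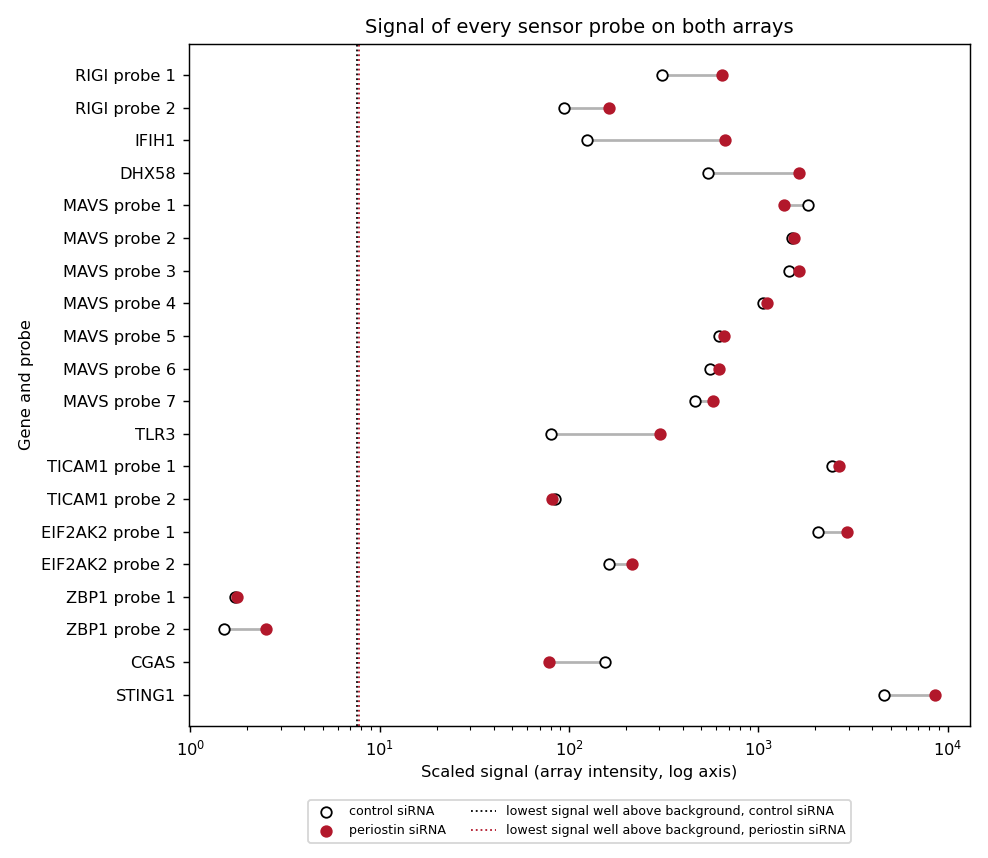
Scaled signal (log axis) of all 20 probes of the 10 genes with control siRNA (open) and periostin siRNA (red), with dotted lines at the lowest signal flagged well above background on each array. Both ZBP1 probes lie left of the lines, and the widest gaps are those of IFIH1, TLR3 and DHX58.

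With the brightest probe standing for each gene, 3 of the 9 measured genes, IFIH1, TLR3 and DHX58, were higher with periostin siRNA by more than 3-fold and 0 were lower by more than 3-fold. Over all 16052 genes with a ratio, 3.37% were higher and 2.75% were lower by that much, and of the genes above background on both arrays, as these 9 were, 2.7% were higher. The ratio was above 0 for 7 of the 9, against 54.5% of all genes. The 9 log2 ratios had a median of 0.89, against 0.06 over all measured genes. At 2-fold, 4 of the 9 were higher, with RIGI added, against 7.97% of all genes, and 0 were lower, against 6.42%. These counts at 2-fold depend on the processing. The error of RIGI, at a log2 ratio of 1.07 ± 0.20, spans the 2-fold line. RIGI lay below 2-fold with median scaling, the normexp background correction or probe averaging, at 0.94, 0.92 and 0.93. CGAS was lower by more than 2-fold with median scaling or quantile normalization, at -1.10 and -1.03.

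The helicases are described first. IFIH1 had a signal of 125 ± 12.6 with control siRNA and 668 ± 66.8 with periostin siRNA. This was a 5.35-fold difference, a log2 ratio of 2.42 ± 0.20, and the largest among the 9 measured genes. DHX58 went from 541 ± 54.1 to 1635 ± 164, a 3.02-fold difference with a log2 ratio of 1.60 ± 0.20, so that its error spans the 3-fold line. With the median scaling, quantile normalization, the normexp background correction or the median pixel, DHX58 lay below 3-fold, at log2 ratios of 1.47, 1.58, 1.47 and 1.54. RIGI was measured by a pair of probes. The brighter went from 308 ± 30.9 to 646 ± 64.6, a log2 ratio of 1.07 ± 0.20, and the dimmer from 93.6 ± 9.50 to 163 ± 16.4, a log2 ratio of 0.80 ± 0.21. The probes of RIGI gave ratios within their errors of each other, and both lay below that of IFIH1 by more than the errors. All 3 helicases were thus higher on the periostin siRNA array by more than the spot error, whereas only 2 passed 3-fold.

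MAVS, on which RIG-I and MDA5 converge, was covered by 7 probes. With control siRNA their signals were 1823, 1513, 1456, 1062, 624, 555 and 463. In the same order the signals with periostin siRNA were 1363, 1554, 1651, 1107, 661, 617 and 577. The log2 ratio was above 0 for 6 of the 7 probes, between 0.04 and 0.32, and below 0 for the first, at -0.42 ± 0.20. That probe is the brightest, so the gene-level value of MAVS is -0.42, while the median over the 7 probes was 0.08 and their mean 0.06 with an SD of 0.23. The direction of MAVS therefore rests on the choice of probe. Under the normexp correction, and with the median pixel, another probe was the brightest and MAVS had log2 ratios of 0.20 and 0.21.

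In the endosomal route, TLR3 had a signal of 80.0 ± 8.15 with control siRNA and 302 ± 30.3 with periostin siRNA. The difference was 3.78-fold, with a log2 ratio of 1.92 ± 0.21. Under the normexp correction, which adds an offset of 50 to each signal and so pulls dim probes towards no change, the log2 ratio of TLR3 was 1.38, below 3-fold. Its adaptor TICAM1 went from 2444 ± 244 to 2665 ± 267 by the brighter probe and from 84.2 ± 8.55 to 81.4 ± 8.29 by the dimmer one. The log2 ratios of 0.12 ± 0.20 and -0.05 ± 0.21 were smaller than their errors, so no difference in TICAM1 could be seen at this precision. IFIH1, DHX58 and TLR3, which passed 3-fold, thus stood beside the RNA-sensing adaptors MAVS and TICAM1, whose probes lay between -0.42 and 0.32. Not all members divided this way, since the sensor CGAS was at -0.97 and STING1, which acts after it, at 0.89.

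EIF2AK2, the kinase PKR, was already clear in control cells. Its brighter probe went from 2079 ± 208 to 2956 ± 296 and its dimmer probe from 163 ± 16.4 to 215 ± 21.6, log2 ratios of 0.51 ± 0.20 and 0.40 ± 0.20. Both probes were higher by more than the spot error and by less than 2-fold.

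The DNA-sensing pair moved in opposite directions. CGAS went from 154 ± 15.6 with control siRNA to 78.6 ± 8.13 with periostin siRNA, a log2 ratio of -0.97 ± 0.21, the lowest of the 9 measured genes. STING1, which acts after cGAS, went from 4633 ± 463 to 8575 ± 857, a 1.85-fold difference with a log2 ratio of 0.89 ± 0.20. Each rests on 1 spot, and neither passed 2-fold. CGAS did pass it under median scaling, at -1.10, and quantile normalization, at -1.03. The signs of both were the same in all 11 settings tried, from -1.10 to -0.59 for CGAS and from 0.76 to 0.93 for STING1. Settings that average probes or filter spots could not change either, as each has 1 probe.

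**Figure D3:**
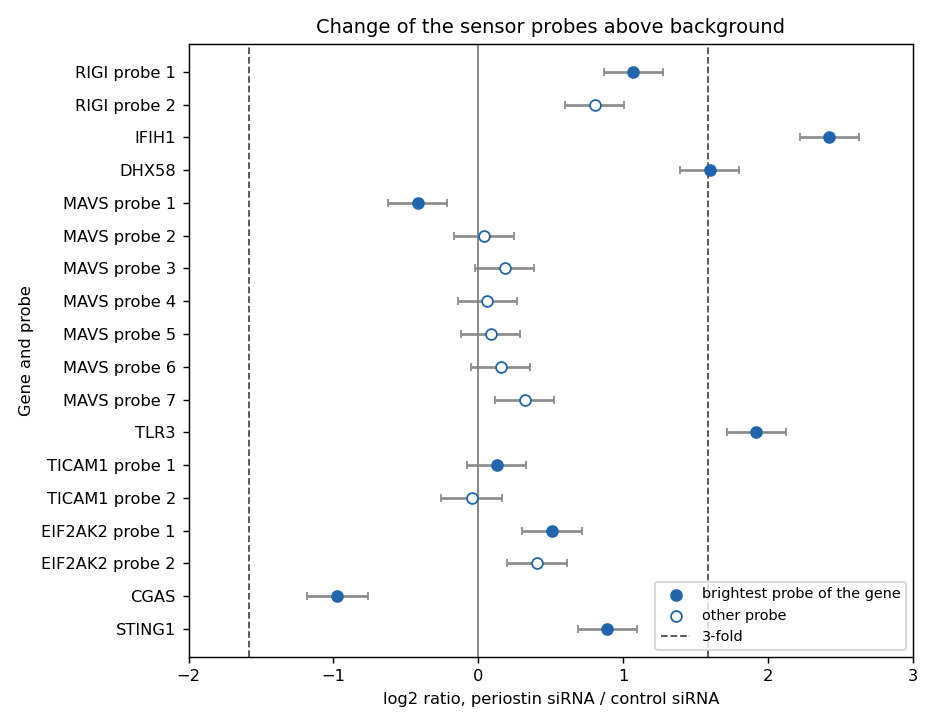
Log2 ratio, periostin siRNA over control siRNA, for the 18 probes above background, with the propagated spot error as bars and 3-fold as dashed lines (filled, brightest probe of a gene; open, its other probes). IFIH1, TLR3 and DHX58 lie past the right line, CGAS lies at -0.97 and 6 of 7 MAVS probes lie above 0.

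The median pixel of each spot minus its local background, a value that had not been detrended, differed in its log2 ratio by at most 0.15 from the processed signal over the 18 probes. The 50 replicated probes (printed 10 times) nearest in signal to each member probe had an SD of the log2 ratio between their spots of 0.05 to 0.21. The ratio of IFIH1 stayed past 3-fold in all 11 settings, between 1.96 and 2.46, that of TLR3 in 10 and that of DHX58 in 7. The 11 include the reported value. Each of these genes has 1 unflagged probe above background on both arrays, so probe averaging and the filters could not change it. The authors' table differs by a constant for each array, which left the ratios nearly the same. The counts of settings therefore hold repeats of 1 value.

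**Figure D4:**
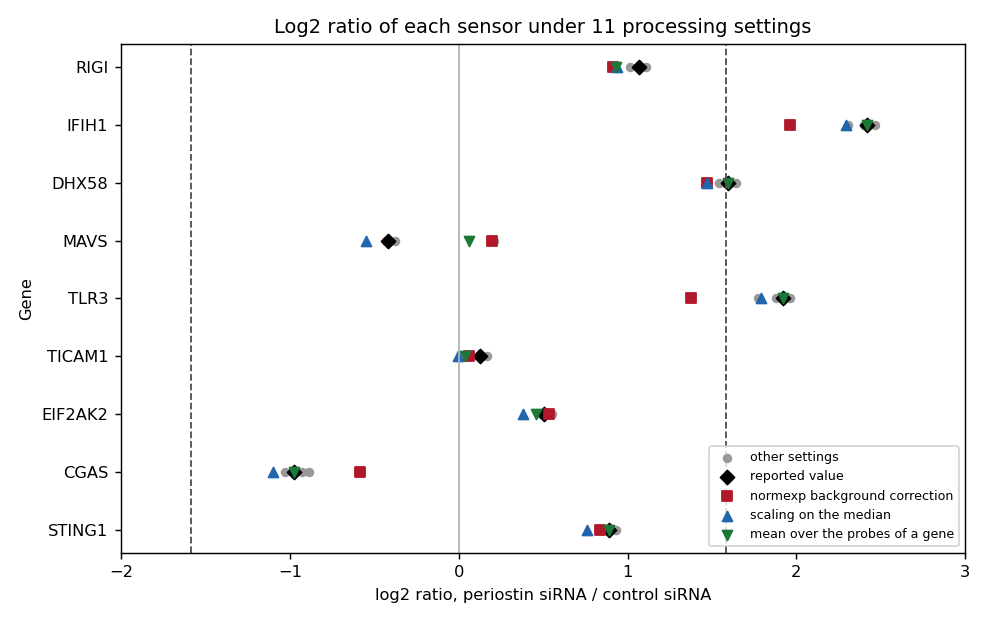
Log2 ratio, periostin siRNA over control siRNA, for the 9 measured genes in 11 settings, with dashed lines at 3-fold. IFIH1 stays between 1.96 and 2.46, DHX58 straddles the line and MAVS changes sign.

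Other genes of nucleic acid sensing were described by 7 further lists with 108 genes, of which 105 had a probe and 91 a ratio. Of the 91, 1 was higher by more than 3-fold and 0 were lower, against 3.37% and 2.75% of all genes. The median log2 ratio was 0.06, as over all genes to that precision. The 1 gene was TNFAIP3, the ubiquitin-editing inhibitor A20 of NF-κB signalling, which went from 30.6 to 102, a log2 ratio of 1.74. It rests on 1 spot, and its control signal was below the brightest negative control spot of that array, at 33.7. Under the normexp correction and with the median pixel TNFAIP3 did not pass 3-fold. Past 2-fold, 6 of the 91 were higher, TNFAIP3, RNF125, DDX60, IRAK2, NLRC5 and IFNE, and 3 were lower, LRRC8C, CYLD and MLKL. Over all genes, 7.97% were higher and 6.42% lower by that much. All the genes named here but TNFAIP3 and IFNE were picked out after their values were seen. Of the 4 genes past 3-fold in the sensors and these lists together, 3 were sensors. Members and lists were chosen with earlier results of these data known, so nothing is concluded from this split.

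Of the 14 cofactors of RNA sensing 0 passed 3-fold, and their median log2 ratio was -0.03. DDX60, a helicase that promotes signalling by RIG-I, went from 219 to 488, a log2 ratio of 1.16. ADAR, which edits double-stranded RNA and so hides self RNA from MDA5, went from 5973 to 9725, a log2 ratio of 0.70. TRIM25, the ubiquitin ligase of RIG-I, gave 0.16, and DDX1 gave -0.06. RNF135, another ubiquitin ligase of RIG-I, gave 0.30. DDX60 apart, these partners of the helicases lay within 2-fold.

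Of the 20 kinases and adaptors that act after MAVS, TICAM1 and STING1, 0 passed 2-fold in either direction, with a median log2 ratio of 0.22. The kinase TBK1, which phosphorylates IRF3, gave 0.04 (signal 501 to 515), and the inducible kinase IKBKE gave 0.96 from 75.8 to 148. IRF3 gave 0.40 by the probe that stands for it (512 to 677) and 0.06 by another of like signal (573 to 597). The genes of this list with the highest control signal were FADD at -0.15, TRADD at 0.40 and TAB2 at 0.20 (-0.12 by its dimmer probe).

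Of the 13 negative regulators, TNFAIP3 passed 3-fold, and the median was -0.01. RNF125, a ligase that marks RIG-I for degradation, went from 10.3 to 27.0 close to background, a log2 ratio of 1.40, while CYLD, which removes ubiquitin chains from RIG-I, went from 82.1 to 36.8, a log2 ratio of -1.16. NLRC5 gave 1.03 by its brighter probe (53.4 to 109) and 0.23 by its dimmer one, and the mitochondrial protein NLRX1 gave 0.81. PCBP2, TAX1BP1 and OTUD5 gave 0.14, -0.01 and 0.37. The dimmer probe of OTUD5 gave 0.04, and the other probes of PCBP2 gave 0.24 and -0.03.

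Among the 22 other DNA sensors and handlers of cGAMP, 19 had a ratio, 0 passed 3-fold and the median was -0.13. IFI16 went from 1284 to 1285, and AIM2 was below background on both arrays. LRRC8C, a subunit of a channel that carries cGAMP, went from 285 to 99.0 by its brighter probe, a log2 ratio of -1.53 just short of 3-fold, and past it under median scaling. XRCC6, LRRC8A and TMED2 gave -0.39, -0.10 and -0.15. None of the genes of this list with a ratio was higher by more than 2-fold.

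Of the other Toll-like receptors, TLR2, TLR4, TLR7, TLR8 and TLR10 were below background on both arrays. TLR9, at 12.9 and 14.3, and TLR6, at 16.0 and 20.5, were close to it, and TLR1 was above it with periostin siRNA alone, at least 1.70-fold higher. TLR5 gave 0.21 by its brighter probe, while its other probe went from 1.79 to 16.5 and was above background with periostin siRNA alone. UNC93B1, which escorts TLR3 to the endosome, went from 2380 to 3442, a log2 ratio of 0.53, and its 4 probes lay between 0.46 and 0.60. LY96 and MYD88, the other bright genes of this list, gave -0.09 and 0.50, and IRAK2 gave 1.08. TLR3 was thus the one Toll-like receptor among these 10 past 3-fold by its brightest probe. Of the others, 5 had no ratio and most of the rest were close to background, so few could be compared with it.

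PKR belongs to a family of kinases of eIF2α. The others lay nearer to 0, EIF2AK1 at 0.30, EIF2AK4 at 0.17 and EIF2AK3 at -0.25. With a spot error of 0.20 on each PKR ratio, PKR cannot be set apart from EIF2AK1. Of the 10 genes of this list 9 had a ratio and 0 passed 3-fold, with a median of -0.32. DNAJC3, an inhibitor of PKR, went from 912 to 464, a log2 ratio of -0.97, and ATF4, translated when eIF2α is phosphorylated, gave -0.32. The partners of ZBP1 in necroptosis differed from each other, since RIPK3 was below background on both arrays whereas MLKL went from 619 to 293, a log2 ratio of -1.08. ZBP1 and RIPK3 were thus both undetected in either culture.

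Of 8 interferon genes with a probe, IFNB1, IFNA2, IFNL1, IFNL3, IFNK and IFNG were not above background in either culture, IFNB1 having 2.14 with control siRNA and 1.56 after periostin siRNA. IFNL2, which shares sequence with IFNL3, went from 30.3 to 35.6. IFNE was above background with periostin siRNA alone, at 17.8, and at least 2.36-fold higher.

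**Figure D5:**
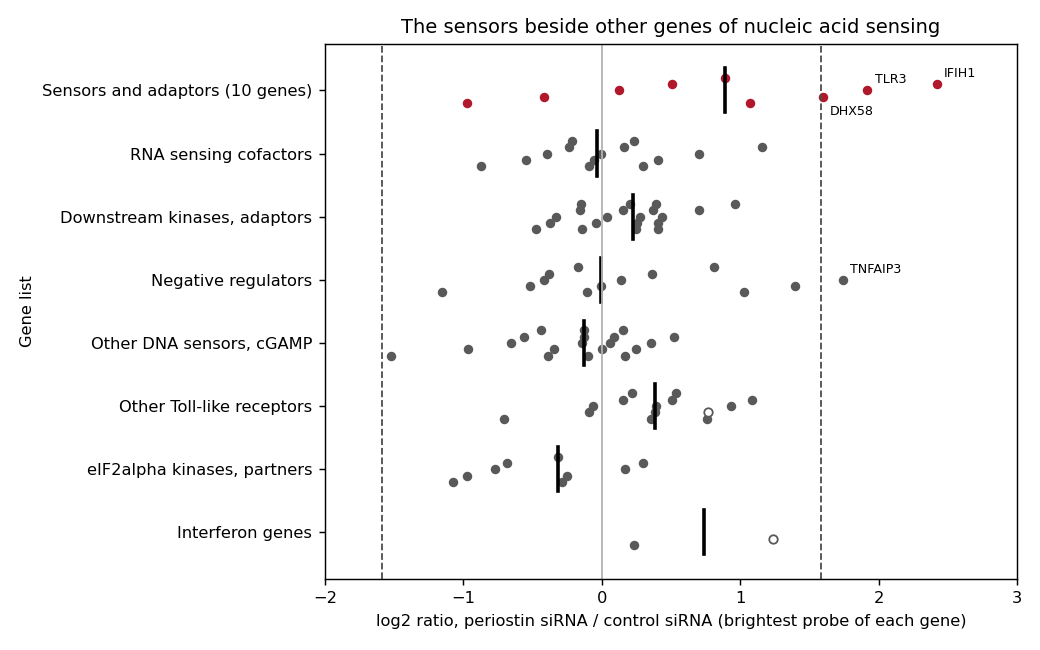
Log2 ratio, periostin siRNA over control siRNA, by the brightest probe of each gene, for the 9 measured sensors and adaptors (red) and 7 lists of other sensing genes (grey). Black bars are at the medians, dashed lines at 3-fold, and open points are bounds. Genes without a ratio, ZBP1 among them, are not drawn. The 4 labelled genes are past 3-fold, and the sensors have a median of 0.89.

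Markers of other cells were read beside these values. Of 14 immune cell markers 13 had a probe, and 5 were well above background with control siRNA and 7 with periostin siRNA. Their signals summed to 1966 in control cells and to 3167 in the other culture (a sum over probes that are not on a common scale, so that it follows the brightest). CD68 went from 1528 to 2452 and CD14 from 287 to 549. Neither array had HLA-DRA or MS4A1 above background. ITGAM went from 10.7 to 32.0, CD74 was at 2.81 and 9.57, and PTPRC at 17.6 and 25.1. CORO1A was lower with periostin siRNA, from 89.9 to 66.7, a log2 ratio of -0.43. Of the 7 immune markers with a ratio, 6 were above 0 and 1 below. Of 10 epithelial and endothelial markers 6 and 5 were above background, with a summed signal of 374 and 669. EPCAM went from 34.6 to 135, a log2 ratio of 1.97, while CDH1, NKX2-1 and PECAM1 were below background on both. KRT19 went from 167 to 342, a log2 ratio of 1.04, and SFTPC and VWF gave 0.66 and 0.15. The control signals of EPCAM and SFTPC were close to the brightest negative control spot of that array, at 33.7. Of the 6 with a ratio, 4 were above 0 and 2 below. The lower ones were CDH5 at -0.09 and KDR, above background with control siRNA alone, at a bound of -0.33. The part of such markers in the differences of the sensors was not tested.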

How the data were processed

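MRC-5 cells treated with control siRNA or periostin siRNA were measured on 1 Agilent SurePrint G3 array each, and both arrays lay on 1 slide. The authors deposited each scanner file, whose intensity values Feature Extraction 11.5.1.1 (12.0.3.1 in the submitters' processing notes) had background-subtracted and detrended without scaling, and flags for background and outliers. The deposited table of normalized intensity values, of unstated method, equalled those values times 3.65 and 3.54 for probes printed once. Here each array was scaled on the log2 scale by the 75th percentile of its processed signal over spots other than controls (372 and 383). Spots of a probe were averaged, and the brightest probe stood for a gene. For a probe above background on 1 array alone the ratio is a bound against whichever was higher on the other array, its own signal or the lowest flagged signal. RefSeq accessions (GRCh38.p14, the array being annotated on hg19) named 65.1% of the spots, and other spots were not used here. With 1 array per group, precision is limited by their number, no test was run and no replicate could be left out.

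Members and lists were chosen with earlier results of these data known. Text names all members, POSTN, wider-list genes past 3-fold, interferon genes and up to 3 of the brightest genes in control cells per list, and others where stated or where they act directly on a member, chosen after their values were seen. The gene-level steps were tested on simulated data. Alternatives were median, no, above-background or quantile scaling, normexp (limma 3.58.1, offset 50, on the median brightness), the authors' table, probe averaging, filters on dim or flagged spots, 2-fold and 4-fold thresholds and, chosen after seeing the data, the median pixel. Python 3.11.15, numpy 2.4.6, pandas 2.3.3 and R 4.3.3 were used.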

Additional observations from a re-analysis of the deposited data

How the results depend on the processing

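No paired analysis was possible because there was 1 array per group. The number of sensor genes higher by more than 3-fold was 1 in place of 3 under the normexp correction and at a 4-fold threshold, IFIH1 each time. It was 2 with quantile normalization, scaling on the median or the median pixel. The median log2 ratio of the sensor genes was 0.76 in place of 0.89 with scaling on the median, which shifted the median of all genes by -0.13. In the wider sensing lists, the count of higher genes was 0 in place of 1 under normexp, with the median pixel (a setting chosen after seeing the data) and at 4-fold, and 6 at 2-fold, and that of lower genes was 1 in place of 0 with scaling on the median and 3 at 2-fold. Over all named genes, 143 were higher and 190 lower under normexp, in place of 541 and 441, against 1279 and 1031 at 2-fold and 278 and 274 at 4-fold. Of the calls past 3-fold, 55.1% were higher ones, but 42.9% under normexp and 46.3% with scaling on the median. The sign of MAVS changed with probe averaging (0.06), normexp (0.20) and the median pixel (0.21), and that of TICAM1 with scaling on the median (-0.0036). POSTN, IFIH1, RIGI, TLR3, DHX58, EIF2AK2, STING1 and CGAS kept their sign in all 11 settings. For those with 1 probe, probe averaging and the filters on dim or flagged spots could not change the value. Signal over background limits ZBP1, for which no ratio can be given.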
